A study of Brassica napus with 18 samples.

Results

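Wax and very-long-chain fatty acid genes of Brassica napus (oilseed rape) were taken from a gene expression table as the genes whose Swiss-Prot description holds 3-ketoacyl-CoA synthase or ECERIFERUM, or whose Swiss-Prot gene name is CER1, CER2, CER3, CER4, MAH1, WSD1 or MYB96. This gave 155 of the 108207 genes of the table. They comprised 78 3-ketoacyl-CoA synthases (KCS), 4 CER1 and 9 CER3 genes, 13 genes of the CER2 and CER26 type, 1 CER16, 36 WSD1 and 14 MYB96 genes. No gene carried the name CER4 or MAH1, because Swiss-Prot lists these proteins as FAR3 and CYP96A15, and they are described below with the other pathway genes. By their identifiers 70 genes lie on A chromosomes and 79 on C chromosomes, the chromosome sets that the allotetraploid B. napus has from its parents B. rapa and B. oleracea, and 6 are on scaffolds or unplaced. Gene coordinates, sequences and the genome build were not used here.

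Leaf epidermis cells cover the shoot with a cuticle of cutin and wax that slows water loss. In Arabidopsis, whose nomenclature the Swiss-Prot names follow, wax is made from very-long-chain fatty acids that the elongase of the endoplasmic reticulum lengthens step by step. The KCS proteins are the condensing enzymes that set chain length, CER2-type proteins assist KCS6 in the longest elongations, CER1 with CER3 forms alkanes, and WSD1 joins alcohols and fatty acids into wax esters. MYB96 is a transcription factor of the abscisic acid and drought response that activates wax genes. CER16 limits the silencing of CER3.

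Aerial parts of plants grown for 3 weeks in Hoagland's solution were compared between wild type (WT) and the mutant bnagrp3, without added salt (mock) or after 200 mM NaCl for 4 h or 8 h, with 3 libraries in each of 6 groups and 18 libraries in all. The labels give the tissue as leaf and the RNA as that of the aboveground part. The mutant stands for 1 line, named bngrp3#2, and its allele and the cultivar are not described in the labels. The labels do not say whether the 3 libraries of a group came from separate plants or cultures. The p-values rest on the spread between libraries within groups, pooled over the 6 groups and moderated across genes. That spread may therefore be technical. Values are TPM, transcript abundances scaled by gene length and library total, so that levels can be compared between genes.

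TPM adds up to the same total in every library (999998 to 1000002), so depth is unknown, and precision was judged from the spread between libraries. Of 13 genes described as glycine-rich protein 3 (GRP3), 2 had every WT library above every bnagrp3 library, an unplaced gene model at 376 to 2800 TPM in WT against 0 to 4.51 TPM in bnagrp3 and BnaA07G0050000ZS at 16.9 to 137 against 0.88 to 11.2 TPM. WT libraries also differed among themselves. Over 326 genes at 5 TPM or more in every bnagrp3 library and at most 0.2 TPM in at least 2 WT libraries, the ratio of a WT library to the mean of the matching bnagrp3 libraries had a median of 0.214 to 0.254 in mock, but 0, 0.67 and 0.233 in the 3 libraries at 4 h and 0.168, 0 and 0.369 at 8 h. The second WT library at 4 h and the third at 8 h had the highest ratios, and the first at 4 h and the second at 8 h were at 0, a value that the choice of these genes favours. Counts are also given without the 2 libraries of highest ratio and without the 2 at 0. One KCS19 gene, BnaC02G0016700ZS, belongs to that set.

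Leaf markers fitted the label: 72 of 78 mesophyll genes (Rubisco small subunits and chlorophyll a-b binding proteins) reached 1 TPM, while none of 22 root endodermis and none of 4 anther genes did, with 20 and 3 of them at 0 in every library. Both leaf lists moved with the groups. The summed level of the mesophyll list was 142000 to 157000 TPM in WT mock, 79200 to 85000 at 4 h and 63400 to 70100 at 8 h, and 161000 to 166000, 83400 to 86400 and 71800 to 80300 in bnagrp3. The 23 epidermis genes, 20 of which reached 1 TPM and none of which was at 0 throughout, summed to 303 to 335, 171 to 244 and 187 to 220 TPM in WT and to 208 to 245, 151 to 172 and 173 to 179 in bnagrp3. Single epidermis genes moved both ways. By the test described below, 3 of 20 were higher and 6 lower in bnagrp3 mock than in WT mock, with a median log2 difference of −0.05. Of all genes tested, 9.1% were higher and 12.4% lower there. In WT, 3 rose and 11 fell at 4 h (26% and 20.5% of all genes), and 3 rose and 9 fell at 8 h (29% and 17.3%). In bnagrp3 3 rose and 11 fell at 4 h (28.7% and 23.5%), and 4 rose and 9 fell at 8 h (31.3% and 18.4%). Of the other lists, 25 of 38 guard cell, 11 of 17 trichome and 13 of 90 seed genes reached 1 TPM, and the seed list, with 44 genes at 0 throughout, summed to 22.4 to 29.9 TPM in WT mock and 11.1 to 13.5 in bnagrp3 mock. The part of these markers in the results below was not tested. In such bulk tissue, fewer cells of a type and less RNA per cell cannot be told apart.

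Of the 155 genes, 86 reached 1 TPM in at least 3 libraries and were tested, and 69 did not, among them 21 listed at 0 in all 18 libraries. A gene that passed through 1 condition alone had to differ there, so the counts below describe the genes tested and not all 155. Tests were made with limma on log2(TPM + 1) over all 57923 genes that passed the same filter, and a gene was called at a Benjamini-Hochberg adjusted p under 0.05. Fold changes below are differences on the log2(TPM + 1) scale with their standard error (SE), which understate the change of genes near 0. Comparisons of 4 h and of 8 h in 1 genotype share their mock libraries.

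Wax genes differed between salt and mock in both directions. In WT, 39 of the 86 genes rose and 23 fell at 4 h, where 46.6% of all genes tested were called, 26% higher and 20.5% lower. At 8 h 42 rose and 23 fell, against a background of 46.3% called, 29% higher and 17.3% lower. In bnagrp3, 31 rose and 22 fell at 4 h (background 52.2%, with 28.7% higher and 23.5% lower) and 41 rose and 19 fell at 8 h (background 49.7%, with 31.3% higher and 18.4% lower). The median difference over the 86 genes was 0.29 and 0.34 in WT at 4 h and 8 h and 0.12 and 0.32 in bnagrp3, beside 0.055, 0.136, 0.056 and 0.143 over all genes tested. The WT counts were 41 and 21 at 4 h and 39 and 20 at 8 h without the 2 libraries of highest ratio, and 38 and 27 and 42 and 23 without the 2 at 0. Median-of-ratios and quantile scaling moved the median of all genes at 8 h by −0.125 and −0.136 in WT and by −0.136 and −0.143 in bnagrp3, and the former changed the bnagrp3 split at 8 h to 35 higher and 26 lower.

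The direction followed the gene name for some families and split within others. All 6 KCS6 genes tested rose in WT at both times, and 12 of 13 MYB96 genes did, whereas both KCS13 and both KCS12 genes fell in every comparison with mock. Of 21 names with at least 2 genes tested, 6 had genes called in opposite directions in WT at 4 h, 8 at 8 h, and 5 and 7 in bnagrp3. Genes of 1 name share ancestry and sequence, so reads from near-identical copies may have been assigned to either. How such reads were counted is not given in the sources used here.

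**Figure D1:**
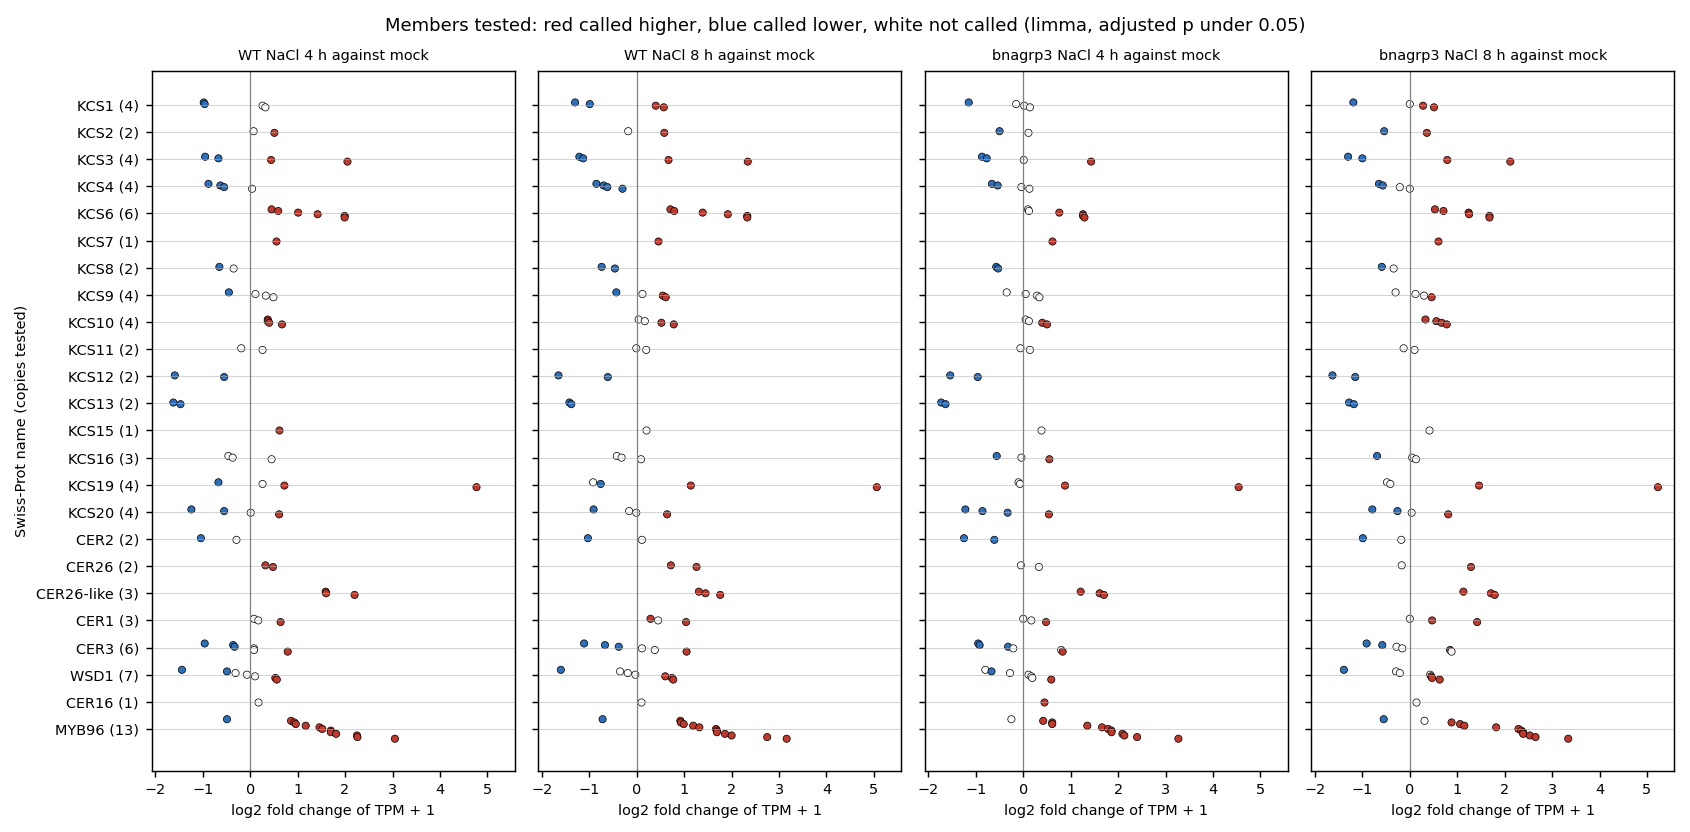
Log2 fold change of TPM + 1 of each of the 86 genes tested (points) in the 4 comparisons of NaCl with mock, by Swiss-Prot name, with the number of genes tested in brackets. Red points were called higher, blue points called lower and white points not called. KCS6 lies to the right of 0 and KCS12 and KCS13 to the left in all 4 panels, MYB96 lies to the right except for 1 gene, and KCS3, KCS20 and CER3 have genes on both sides.

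Among the condensing enzymes, 18 of the 49 tested KCS genes rose and 16 fell in WT at 4 h, 19 rose and 17 fell at 8 h, and in bnagrp3 12 rose and 16 fell at 4 h and 20 rose and 14 fell at 8 h. KCS6, known in Arabidopsis as the main elongase of wax and named CER6 there, was the KCS name with the most uniform rise. Its most abundant gene, BnaA09G0437300ZS on chromosome A09, had 101, 94.2 and 125 TPM in WT mock, 169, 125 and 147 at 4 h and 168, 200 and 158 at 8 h. The same gene had 71, 69.6 and 68 TPM in bnagrp3 mock, 75.8, 77.5 and 74 at 4 h and 108, 129 and 108 at 8 h. Every WT library was above every bnagrp3 library of the same treatment, and in WT the highest mock library met the lowest 4 h library. The gene rose in WT by 0.45 (SE 0.13, limma adjusted p = 0.00804) at 4 h and by 0.71 (adjusted p = 0.000293) at 8 h. In bnagrp3 the 4 h difference was 0.12 and not called (limma adjusted p = 0.447), and the 8 h rise was 0.71 (adjusted p = 0.000248). A further description in the table calls this gene KCS5, a close relative of KCS6 also known as CER60.

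Its counterpart on C05, BnaC05G0226200ZS, had 83.1, 72.7 and 93.9 TPM in WT mock, 139, 116 and 121 at 4 h and 135, 158 and 139 at 8 h, and in bnagrp3 77.7, 74.9 and 77 in mock, 82.5, 82.9 and 80.6 at 4 h and 110, 124 and 99.6 at 8 h. All salt libraries lay above all mock libraries in both genotypes, but the 4 h difference was 0.59 (SE 0.1, limma adjusted p = 0.00027) in WT and 0.1 (adjusted p = 0.461) in bnagrp3. BnaA07G0275100ZS, at 24.3 to 27.8 TPM in WT mock, rose by 1.01 and 1.39 in WT and by 0.76 and 1.24 in bnagrp3. The 2 gene models BnaC07G0237700ZS and Bnascaffold0749G0000100ZS hold identical values in every library and may be 1 gene listed more than once. They had 4.91, 3.44 and 3.79 TPM in WT mock, 18.2, 19.6 and 18.8 at 4 h and 23.4, 25.4 and 23.6 at 8 h, and in bnagrp3 5.99, 7.03 and 6.35, then 16.8, 18.3 and 15.5, then 21.2, 26.8 and 20.8. No salt library overlapped with mock, and the rises were 1.99 and 2.33 in WT and 1.26 and 1.68 in bnagrp3. An unplaced KCS6 model rose by 1.42 and 1.92 in WT and by 1.29 and 1.25 in bnagrp3. The KCS6 sum covers all 9 models of the name, tested or not, and counts the identical pair double. It was 207 to 258 TPM in WT mock, 342 to 414 at 4 h and 433 to 500 at 8 h. In bnagrp3 the sums were 186 to 190, 240 to 250 and 311 to 388 TPM, below every WT sum of the same treatment.

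The largest rise of any wax gene tested was that of a KCS19 gene on A10, BnaA10G0282600ZS. It had 0.03, 0.1 and 0.03 TPM in WT mock, 26.9, 28.3 and 27.7 at 4 h and 33.2, 29.4 and 40.7 at 8 h, and in bnagrp3 0.11, 0.15 and 0.03, then 28.2, 21.6 and 23.9, then 37.8, 43 and 39.6. It was almost silent without salt and was among the moderately expressed wax genes after 4 h, in all 12 salt libraries. The differences were 4.77 and 5.06 in WT and 4.54 and 5.23 in bnagrp3 (SE 0.11, limma adjusted p = 3.67e-13, 1.74e-13, 5.53e-13 and 1.36e-13). Its namesake BnaA02G0016500ZS went the other way in WT, from 8.64, 6.99 and 8.09 TPM in mock to 6.49, 3.02 and 4.73 at 4 h and 4.27, 5.36 and 3.28 at 8 h, falls of 0.67 and 0.76. The 4 h call was lost in a fit to those 2 groups alone (limma adjusted p = 0.08). In bnagrp3 this namesake had 3.21, 3.59 and 3.65 TPM in mock, below every WT mock library (difference −0.99, SE 0.19, limma adjusted p = 0.00175). A further KCS19 gene, BnaC02G0016700ZS of the set in which WT libraries differ, ranged from 0 to 13.8 TPM among the WT 4 h libraries and was called in no comparison with mock.

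**Figure D2:**
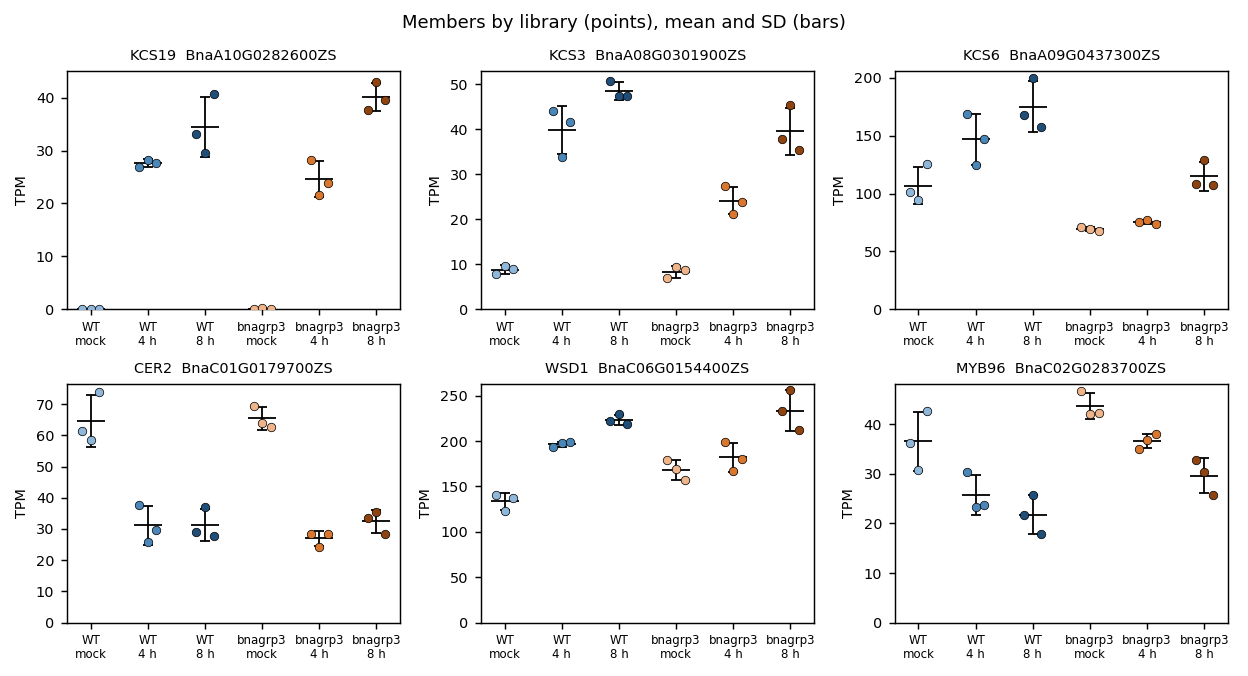
TPM of 6 genes in every library (points) with mean and SD of the 3 libraries (bars), for WT (blue) and bnagrp3 (orange) in mock, NaCl 4 h and NaCl 8 h. KCS19, KCS3, KCS6 and WSD1 genes sit higher at 8 h than in mock in both genotypes, whereas the most abundant CER2 and MYB96 genes sit lower, and KCS6 is lower in bnagrp3 throughout.

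KCS3, described in Arabidopsis as a negative regulator of KCS6, split by copy. BnaA08G0301900ZS had 7.85, 9.68 and 8.97 TPM in WT mock, 44.2, 33.8 and 41.6 at 4 h and 50.9, 47.5 and 47.3 at 8 h, against 6.91, 9.44 and 8.66, then 27.3, 21.2 and 23.9, then 37.8, 45.5 and 35.3 in bnagrp3. At 4 h every WT library was above every bnagrp3 library. It rose by 2.05 and 2.34 in WT and 1.43 and 2.12 in bnagrp3, and was lower in bnagrp3 at 4 h by a difference of −0.7 (SE 0.13, limma adjusted p = 0.00166). The difference of the 4 h responses themselves was −0.62 (SE 0.19) and not called (limma adjusted p = 0.104). BnaC08G0032100ZS rose by 0.44 in WT at 4 h (SE 0.13, limma adjusted p = 0.0127), while in bnagrp3 it had 8.62, 9.44 and 7.61 TPM in mock and 9.42, 7.87 and 8.47 at 4 h, a difference of 0.01. The WT call was lost with quantile normalisation (0.26, limma adjusted p = 0.109), in a fit to those 2 groups alone, and without the third 4 h library (0.37) or the first mock library (0.36). At 8 h the gene had risen in both, by 0.67 and 0.79. The KCS3 genes BnaC05G0056900ZS and BnaA06G0045100ZS fell in both genotypes at both times, the latter by 0.95, 1.13, 0.87 and 1.

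Falls were most uniform in KCS13 and KCS12. KCS13 is known in Arabidopsis as HIC, which affects stomatal development. BnaA05G0012000ZS had 37.7, 40.4 and 43.8 TPM in WT mock, 14.4, 12 and 11.4 at 4 h and 15.9, 18.3 and 11.3 at 8 h, and in bnagrp3 45.6, 40.1 and 40, then 12.4, 11.5 and 11.9, then 19.2, 18.5 and 16.1. BnaC04G0012500ZS on C04 went from 44.9, 44.5 and 55.4 TPM to 18.4, 16.4 and 15.4 and to 16.1, 19.8 and 16.3 in WT. The copies on the A and C chromosomes thus fell by like amounts, by 1.62 and 1.47 at 4 h in WT, 1.38 and 1.42 at 8 h, and in bnagrp3 by 1.73 and 1.64 at 4 h and 1.18 and 1.28 at 8 h, with mock and salt libraries apart in each case. The KCS12 gene BnaC04G0195200ZS fell from 5.68 to 6.27 TPM in WT mock to 0.92 to 1.91 at 4 h and 1.06 to 1.41 at 8 h. Of 4 KCS4 genes tested, 3 fell in WT after 4 h and all 4 after 8 h, and 2 fell at each time in bnagrp3. Fits to the 2 groups compared alone lost the WT calls of BnaA09G0609000ZS at 4 h and BnaC08G0462700ZS at 8 h (limma adjusted p = 0.0628 and 0.0993). The latter was also lost without either of 2 libraries.

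KCS1, an elongase of wax synthesis in Arabidopsis, had 2 falling genes on A09 and a rising pair elsewhere. BnaA09G0714600ZS fell from 39.9, 37.6 and 41 TPM in WT mock to 15.9, 21.6 and 22.6 at 4 h and 14.6, 15.5 and 16.4 at 8 h, and from 75.6, 78.4 and 77.8 to 34, 35.7 and 33.1 and to 31.9, 38.3 and 30.2 in bnagrp3. Its falls were 0.96 and 1.3 in WT and 1.15 and 1.19 in bnagrp3. BnaA10G0007800ZS and BnaC05G0009400ZS rose at 8 h, by 0.4 and 0.57 in WT and by 0.51 and 0.28 in bnagrp3, but under both rescalings only the WT rise of BnaC05G0009400ZS kept its call. Under median-of-ratios and quantile scaling the rise of BnaA10G0007800ZS was 0.24 and 0.19 in WT and 0.34 and 0.29 in bnagrp3, and that of BnaC05G0009400ZS in bnagrp3 was 0.1 and 0.06. The WT call of BnaA10G0007800ZS was also lost without any 1 of 3 libraries. Summed over its genes KCS1 had 77 to 90.8 TPM in WT mock and 54.7 to 62 at 8 h, and 97.6 to 100 and 55.3 to 70.5 in bnagrp3.

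KCS10, known as FIDDLEHEAD for its part in keeping shoot organs from fusing, had 4 genes tested. All 4 rose in WT at 4 h and in bnagrp3 at 8 h, and 2 of 4 in WT at 8 h and in bnagrp3 at 4 h. BnaC08G0422900ZS had 15.8, 16.1 and 16.6 TPM in WT mock and 29.6, 23.4 and 26.5 at 4 h, and rose by 0.67 and 0.78 in WT and 0.4 and 0.78 in bnagrp3. KCS2 and KCS20 in Arabidopsis make very-long-chain fatty acids for wax and root suberin. Of 2 KCS2 genes tested, 1 rose and none fell in WT at each time, and 1 fell and none rose in bnagrp3 at 4 h. In bnagrp3 at 8 h 1 rose and 1 fell, and the call of the rise was lost without either of 2 libraries. KCS20 split by copy in both genotypes. The KCS20 gene BnaC02G0385300ZS fell by 1.24 and 0.91 in WT and 1.22 and 0.79 in bnagrp3, from 9.15 to 10.3 TPM in WT mock to 2.93 to 3.9 at 4 h. BnaA06G0440600ZS of the same name rose by 0.61 and 0.64 in WT and 0.54 and 0.81 in bnagrp3, from 8.66 to 11 TPM in WT mock to 14.6 to 16 at 4 h.

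Other KCS names moved less or were hardly expressed. The most abundant KCS9 gene, BnaC07G0065500ZS, stayed between 62.6 and 91.7 TPM in all 18 libraries and was called in no comparison with mock. The KCS7 gene BnaC06G0296800ZS rose by 0.54 and 0.44 in WT and 0.61 and 0.6 in bnagrp3, where the WT call at 8 h was lost under median-of-ratios and quantile scaling (0.29 and 0.24). The KCS8 gene BnaA07G0043200ZS fell by 0.65 and 0.46 and by 0.53 and 0.59. Neither of 2 KCS11 genes was called against mock. Genes of the names KCS5, KCS17, KCS18 and KCS21 did not pass the filter. Among them KCS18, known as FAE1 and needed for erucic acid in seeds, had at most 0.11 TPM in its gene BnaC03G0745900ZS. The KCS9 gene BnaA09G0108600ZS was listed at 46.9 TPM in the second WT mock library and at 0 in the other 17.

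The CER2-type genes, which extend the product range of KCS6, also moved both ways, with 5 of 7 tested genes higher and 1 lower in WT at each time, 3 higher and 2 lower in bnagrp3 at 4 h and 4 higher and 1 lower at 8 h. The CER2 gene BnaC01G0179700ZS had 61.5, 58.4 and 74 TPM in WT mock, 37.8, 25.9 and 29.6 at 4 h and 29.1, 37.1 and 27.6 at 8 h, and 69.5, 64.1 and 62.6, then 28.3, 24.3 and 28.4, then 33.7, 35.3 and 28.4 in bnagrp3. It fell by 1.04 and 1.03 in WT and 1.25 and 0.99 in bnagrp3 (SE 0.14), and no salt library reached the mock range. Its A01 copy, BnaA01G0141100ZS, had 30.3 to 39.7 TPM in WT mock and was called lower only in bnagrp3 at 4 h (difference −0.61, limma adjusted p = 0.00106), where it went from 47.7, 46.2 and 41.7 to 29.3, 28.6 and 30.1 TPM.

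CER26, the relative of CER2 that acts on still longer chains in Arabidopsis leaves, rose instead. BnaA04G0073500ZS had 8.87, 9.98 and 9.01 TPM in WT mock, 14.1, 11 and 15.2 at 4 h and 24.4, 25.6 and 20.9 at 8 h, and in bnagrp3 3.62, 4.56 and 5.32, then 6.53, 5.48 and 5.64, then 11.9, 15.1 and 10.4. Each bnagrp3 library was below all 3 WT libraries of its treatment, and the 8 h libraries were above the others in both genotypes. The rise was 0.48 at 4 h and 1.26 at 8 h in WT, and 1.29 at 8 h in bnagrp3, where the 4 h difference of 0.33 was not called. The WT call at 4 h was lost with quantile normalisation (0.3, limma adjusted p = 0.118) and without the third 4 h library (0.39). BnaC04G0357800ZS, the C04 copy, had 6.33, 8.72 and 7.28 TPM in WT mock, 9.12, 9.39 and 9.86 at 4 h and 13.3, 14.1 and 11.3 at 8 h, but 8.77, 9.19 and 8.89, then 9.29, 7.6 and 9, then 8.45, 7.79 and 7.29 in bnagrp3. It rose in WT by 0.32 and 0.72, and its 8 h libraries were all above those of bnagrp3, where no change was called. The CER26-like genes BnaA02G0369900ZS, BnaC02G0495800ZS and BnaC07G0114800ZS rose in both genotypes at both times, BnaC02G0495800ZS from 5.2, 4.95 and 4.77 TPM in WT mock to 16.7, 18.3 and 16.4 at 4 h, by 1.6 in WT and 1.61 in bnagrp3.

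The alkane-forming proteins held the most abundant wax gene. Of 9 tested CER1 and CER3 genes, 2 rose and 3 fell in WT at 4 h, 3 rose and 3 fell at 8 h, and in bnagrp3 2 rose and 3 fell at 4 h and 3 rose and 2 fell at 8 h. CER1 was expressed almost entirely from 2 genes on A09. BnaA09G0698500ZS had 221, 172 and 257 TPM in WT mock, 442, 258 and 328 at 4 h and 415, 521 and 395 at 8 h, and 19.6, 18.4 and 15, then 28.4, 24.1 and 22.4, then 49.2, 49.4 and 47.6 in bnagrp3. BnaA09G0721400ZS had 273, 219 and 275 TPM in WT mock, 261, 302 and 298 at 4 h and 321, 290 and 328 at 8 h, and 399, 423 and 415, then 503, 442 and 451, then 555, 625 and 539 in bnagrp3. The first gene was far lower and the second higher in every bnagrp3 library than in any WT library of the same treatment. The first rose with salt in WT by 0.64 (SE 0.18, limma adjusted p = 0.00994) and 1.04 (adjusted p = 0.000302), and in bnagrp3 by 1.42 at 8 h (adjusted p = 1.58e-05). The WT call at 4 h was lost without the first 4 h library (0.44) or the second mock library (0.49), and in a fit to those 2 groups alone (limma adjusted p = 0.0924). Its 4 h difference in bnagrp3, 0.48 (limma adjusted p = 0.0419), lost its call under both rescalings and when any of 4 libraries was left out. The second rose at 8 h by 0.47 in bnagrp3 and by 0.29 in WT, where the call was lost with median-of-ratios scaling (0.12, limma adjusted p = 0.351) and without any 1 of 3 libraries (down to 0.19). The CER1 genes on C09, BnaC09G0203600ZS and BnaC09G0203700ZS, reached at most 1.65 and 0.3 TPM.

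The partner CER3 had falling and rising copies. BnaC09G0411500ZS had 36, 30.5 and 40 TPM in WT mock, 18.1, 21.6 and 13.9 at 4 h and 13.1, 19.1 and 15.9 at 8 h, and in bnagrp3 45, 43.3 and 41, then 20.2, 22.8 and 22.5, then 23.9, 24.6 and 19.4. Mock and salt libraries did not overlap, and the falls were 0.96 and 1.11 in WT and 0.95 and 0.91 in bnagrp3. BnaA02G0115400ZS fell less, by 0.33 and 0.67 in WT and 0.32 and 0.58 in bnagrp3, and its 4 h calls were lost without either of 2 libraries in WT and any 1 of 3 in bnagrp3. BnaA10G0135600ZS fell by 0.92 in bnagrp3 at 4 h and by 0.36 in WT, where the call was lost without any 1 of 3 libraries and in a fit to those 2 groups alone. It had 28.5, 34.6 and 31.4 TPM at 8 h in WT, near its mock values of 30.9, 25.5 and 31.4. The opposite direction was that of the weakly expressed BnaA03G0109700ZS, with 5.37, 3.09 and 2.89 TPM in WT mock and 8.7, 7.63 and 9.78 at 8 h, which rose by 0.79 and 1.05 in WT and 0.83 and 0.85 in bnagrp3. Summed over its genes CER3 had 150 to 197 TPM in WT mock and 120 to 150 at 8 h, so that the highest 8 h sum met the lowest mock sum, and 201 to 207 and 139 to 180 TPM in bnagrp3, while CER1 had 393 to 532 and 724 to 812 TPM in WT and 418 to 442 and 587 to 675 in bnagrp3.

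**Figure D3:**
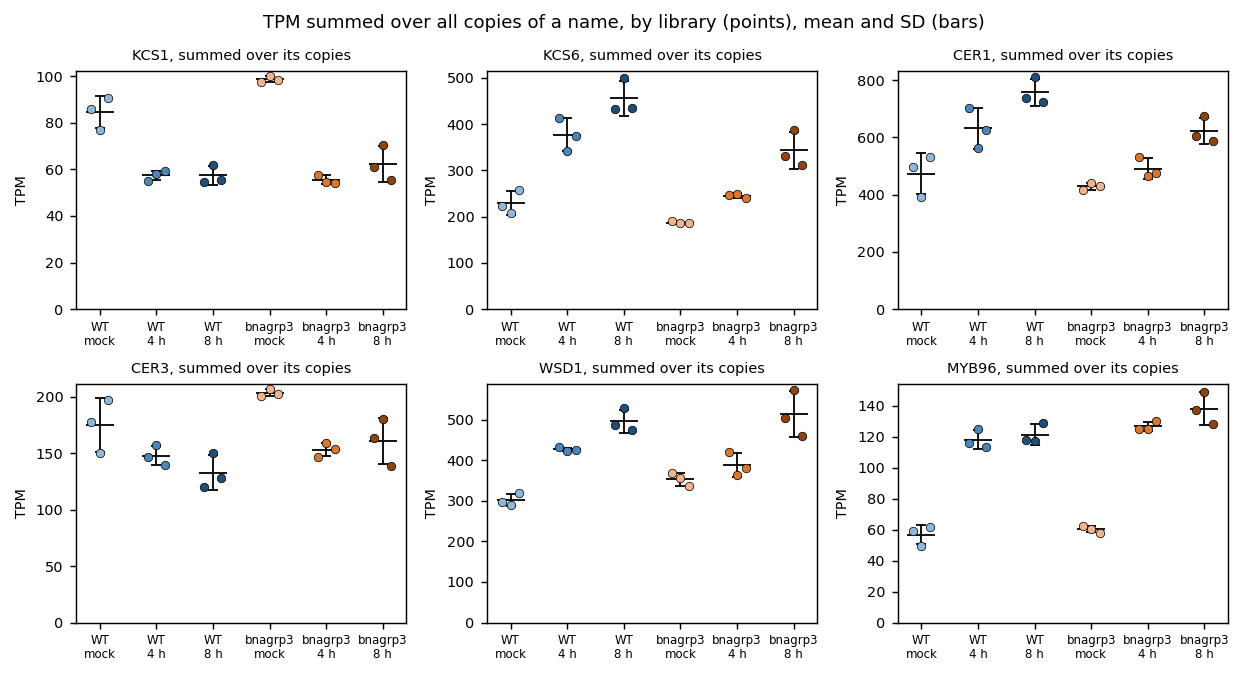
TPM summed over all genes of a Swiss-Prot name in every library (points), with mean and SD of 3 libraries (bars), for KCS1, KCS6, CER1, CER3, WSD1 and MYB96 in WT (blue) and bnagrp3 (orange). The sums of KCS6, CER1, WSD1 and MYB96 are higher at 8 h than in mock in both genotypes, those of KCS1 are lower, and the KCS6 sums of bnagrp3 stay below those of WT. Identical gene models count double in the KCS6 and MYB96 sums.

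WSD1, the wax ester synthase, was listed for 36 genes, of which 7 were tested. In WT 2 of the 7 rose and 2 fell at 4 h and 3 rose and 1 fell at 8 h, and in bnagrp3 1 rose and 1 fell at 4 h and 3 rose and 1 fell at 8 h. Most WSD1 transcript came from a pair of genes on A05 and C06. BnaC06G0154400ZS had 140, 123 and 137 TPM in WT mock, 194, 197 and 198 at 4 h and 222, 230 and 219 at 8 h, and in bnagrp3 179, 169 and 157, then 198, 167 and 180, then 233, 256 and 212. In bnagrp3 the 4 h libraries overlapped with mock, which was not so in WT. It rose in WT by 0.56 and 0.74 and in bnagrp3 at 8 h by 0.47, and was higher in bnagrp3 than in WT in mock by 0.33 (limma adjusted p = 0.011). BnaA05G0142600ZS had 139, 146 and 161 TPM in WT mock and 221, 211 and 209 at 4 h, a rise of 0.53 (limma adjusted p = 0.000305). The same gene had 171, 167 and 163 TPM in bnagrp3 mock and 203, 179 and 183 at 4 h, a difference of 0.17 that was not called (limma adjusted p = 0.147), and at 8 h it had risen by 0.77 in WT and 0.63 in bnagrp3. Of the 2 genes that fell in WT at 4 h, BnaA04G0275500ZS had 3.7, 7.4 and 6.15 TPM in mock and 1.68, 0.64 and 2.21 at 4 h (difference −1.44, limma adjusted p = 0.0268). That call was lost with a pseudocount of 0.1 (limma adjusted p = 0.134) and without any 1 of 3 libraries (adjusted p up to 0.102).

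MYB96-type genes rose almost throughout. In WT 12 of 13 rose and 1 fell at each time, and in bnagrp3 12 rose and none fell at 4 h and 11 rose and 1 fell at 8 h. BnaA09G0078800ZS had 1.95, 0.92 and 1.9 TPM in WT mock, 18.1, 22.8 and 19.6 at 4 h and 19.2, 21 and 25.5 at 8 h, and in bnagrp3 1.47, 1.34 and 1.31, then 21.7, 21.6 and 22.2, then 23.5, 24.5 and 21.5. Its rise was 3.05 and 3.16 in WT and 3.27 and 3.34 in bnagrp3. BnaC09G0070500ZS on C09 had 1.73, 1.79 and 1.9 TPM in WT mock, 10.8, 13.8 and 12.8 at 4 h and 15.4, 19.4 and 19.2 at 8 h, and rose by 2.25 and 2.75 in WT and 2.4 and 2.65 in bnagrp3. The pair was near 2 TPM or below without salt in WT and above 10 TPM in all 12 salt libraries.

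The exception was the most abundant gene of the name. BnaC02G0283700ZS had 36.2, 30.8 and 42.7 TPM in WT mock, 30.3, 23.2 and 23.6 at 4 h and 21.8, 25.7 and 17.9 at 8 h, and fell by 0.49 (limma adjusted p = 0.0115) and 0.72, the former call lost without the third mock library (−0.37) and in a fit to those 2 groups alone. In bnagrp3 it had 46.7, 42.1 and 42.3 TPM in mock, 35.1, 36.9 and 38 at 4 h and 32.8, 30.4 and 25.8 at 8 h, with a difference of −0.25 at 4 h (limma adjusted p = 0.168) and a fall of 0.55 at 8 h. The MYB96 sum nevertheless went from 49.7 to 61.8 TPM in WT mock to 113 to 125 at 4 h and 117 to 129 at 8 h, and from 58.1 to 62 to 125 to 130 and 128 to 149 in bnagrp3. The identical models BnaA02G0400500ZS and Bnascaffold1095G0000200ZS count double in these sums and in the counts above. Several of these genes are called MYB30-like or myb-related proteins in a further description in the table, so their name is not certain. CER16, with 1 gene at 2.34 to 5.19 TPM, was called in bnagrp3 at 4 h alone, with a difference of 0.43 (limma adjusted p = 0.0287) between overlapping groups.

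**Figure D4:**
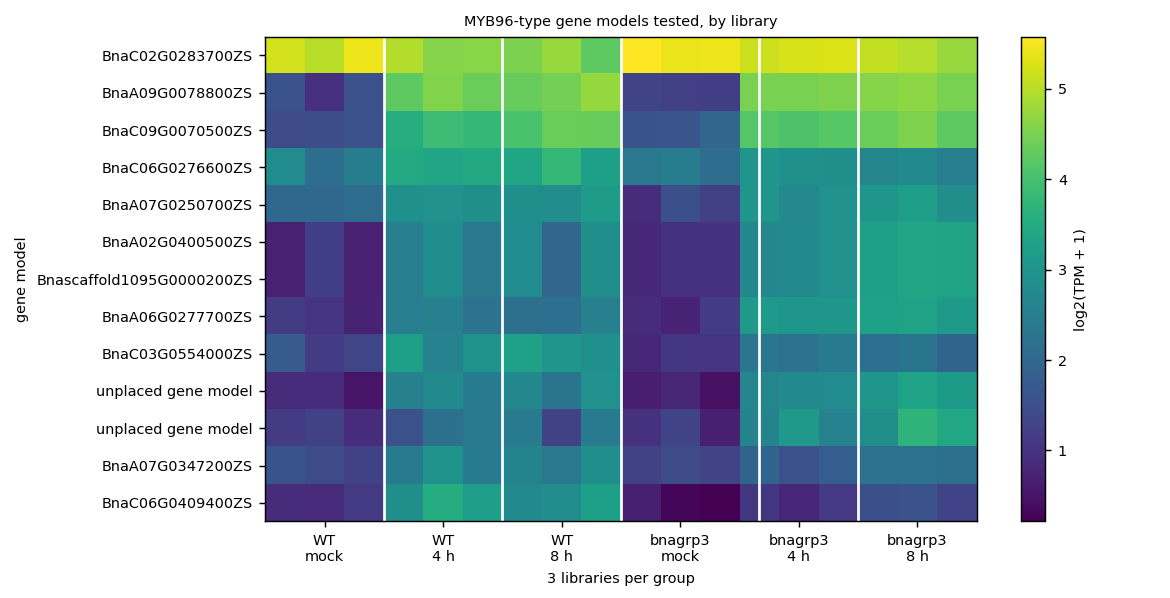
Level of the 13 tested MYB96-type gene models (rows) in the 18 libraries (columns, 3 for each group), as log2(TPM + 1) on the colour scale. The top row, BnaC02G0283700ZS, is darker with salt, the other rows are brighter with salt, and BnaC06G0409400ZS in the bottom row is much brighter in WT than in bnagrp3 after salt.

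Other genes of the pathway, outside the names above, also moved in both directions. Of 16 tested genes for the remaining elongase steps and malonyl-CoA supply, 6 rose and 4 fell in WT at 4 h and 6 rose and 2 fell at 8 h, and in bnagrp3 4 rose and 9 fell at 4 h and 3 rose and 6 fell at 8 h. The ketoacyl reductase gene KCR1 BnaC06G0341300ZS went from 21.1 ± 4 TPM (SD, n = 3) to 41.6 ± 10.3 in WT at 4 h, and the dehydratase gene PAS2 BnaC03G0047500ZS from 33.2 ± 1.66 to 14.6 ± 0.609 in bnagrp3 at 4 h. Between genotypes, 2 of the 16 were higher in bnagrp3 than in WT in mock and none lower (background 9.1% higher and 12.4% lower). At 4 h 6 were lower and none higher (background 13.7% lower and 9.89% higher). At 8 h 1 was higher and 1 lower (background 11.4% higher and 12% lower).

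Fatty acyl reduction and alkane oxidation, with 35 tested genes, included falls from a high level. The most abundant CYP96A15 gene, an unplaced model of the enzyme known as MAH1, fell from 267 ± 41.3 TPM in WT mock to 65.9 ± 9.89 at 4 h and 44.2 ± 10 at 8 h, by 2 and 2.58. The FAR3 gene BnaA01G0042600ZS, of the alcohol-forming reductase known as CER4, fell from 120 ± 20 to 26 ± 2.27 TPM in WT at 8 h, by 2.15. Other genes of the list rose from low levels in WT. Another unplaced CYP96A15 model went from 2.01 ± 0.235 to 6.69 ± 1.99 TPM at 4 h. At 8 h CYP96A15 BnaC09G0199200ZS went from 0 to 8.64 ± 1.97 TPM and FAR1 BnaC09G0447400ZS from 5.09 ± 1.47 to 13.5 ± 6.76. At 4 h 9 genes of this list rose in WT and 13 fell, at 8 h 6 rose and 11 fell, and in bnagrp3 10 rose and 14 fell at both times. Of 6 other wax ester synthases 3 rose and 2 fell in every comparison with mock, among them WSD6 BnaA01G0219600ZS, up by 2.77 from 8.69 ± 1.06 to 64.9 ± 7.53 TPM in WT at 4 h.

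Export genes included large rises. LTPG1, a lipid transfer protein anchored at the cell surface that takes part in wax export, rose in BnaA07G0097200ZS from 5.74 ± 0.78 to 86.5 ± 35.2 TPM in WT at 4 h, by 3.61, and in BnaC07G0148200ZS from 14.6 ± 2.07 to 103 ± 5.4, by 2.75. Another LTPG1 gene, BnaC03G0646900ZS, went the other way, from 34.6 ± 1.29 to 22.6 ± 2.19 TPM in WT at 4 h (difference −0.6). LTPG2 BnaA01G0250300ZS also fell there, from 40.6 ± 1.36 to 17.8 ± 2.71 TPM (difference −1.16). Of 17 export genes tested 6 rose and 3 fell at 4 h in WT, 7 and 3 at 8 h, 3 and 7 in bnagrp3 at 4 h and 8 and 3 at 8 h. Among 25 genes of acyl activation 8 rose and 6 fell in WT at 4 h and 8 and 4 at 8 h, and in bnagrp3 9 and 8, then 9 and 4. There LACS8 BnaA03G0382800ZS rose by 1.77 in WT at 4 h, and LACS2 BnaA05G0181300ZS, which serves cutin synthesis, fell by 0.73.

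Of 48 other regulators 15 rose and 12 fell in WT at 4 h and 17 and 9 at 8 h, and in bnagrp3 24 and 13, then 20 and 9. SUD1 BnaC09G0440800ZS, named CER9 in wax mutants, rose in WT at 4 h by 1.75, and MYB30 BnaA06G0374700ZS fell by 1.46. Cutin genes fell more often than they rose, with 5 of 32 higher and 11 lower in WT at both times and 5 higher and 12 and 11 lower in bnagrp3. Of 8 tested suberin genes none fell, while 4 and 3 rose in WT and 4 and 5 in bnagrp3. These counts stand beside the background shares given for each comparison, and no list was tested as a set.

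Between 4 h and 8 h, 9 wax genes rose and 5 fell in WT, beside 14.7% of all genes called, 8.99% higher and 5.75% lower. In bnagrp3 22 rose and 1 fell, beside 15.3% called, 10.3% higher and 5.05% lower. With median-of-ratios scaling the counts were 7 higher and 7 lower in WT and 14 higher and 3 lower in bnagrp3. The WT counts were 4 and 2 without the 2 libraries of highest ratio, and also without the 2 at 0. The largest rises in bnagrp3 were those of CER26 BnaA04G0073500ZS by 0.95, CER1 BnaA09G0698500ZS by 0.94, KCS3 BnaC08G0032100ZS by 0.78 and CER3 BnaA10G0135600ZS by 0.75. The number in bnagrp3 was 12 in all without its second 8 h library, against 23 with all libraries.

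Between genotypes, 7 wax genes were higher and 9 lower in bnagrp3 than in WT in mock, beside 21.5% of all genes called, 9.1% higher and 12.4% lower. At 4 h 8 were higher and 21 lower (background 23.6%, with 9.89% higher and 13.7% lower), and at 8 h 14 were higher and 17 lower (background 23.4%, with 11.4% higher and 12% lower). With median-of-ratios scaling the mock counts were 10 higher and 9 lower, and with quantile normalisation 9 and 8. KCS genes, 49 of the 86 tested, made up 5 of the 9 lower calls in mock, 14 of 21 at 4 h and 10 of 17 at 8 h. Leaving out the first WT library at 4 h reduced the 29 calls at 4 h to 18, and without the 2 WT libraries of highest ratio 9 were higher and 24 lower at 4 h and 13 and 16 at 8 h. Without the 2 WT libraries at 0 the counts were 5 and 14 at 4 h and 11 and 15 at 8 h.

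KCS6 BnaA09G0437300ZS was lower in bnagrp3 by a difference of −0.6 in mock, −0.93 at 4 h and −0.6 at 8 h (SE 0.13, limma adjusted p = 0.00313, 8.33e-05 and 0.00289). CER26 BnaA04G0073500ZS was lower by −0.91, −1.06 and −0.88. The KCS10 gene BnaC04G0471200ZS was lower in mock, at 36.1, 37.4 and 37.2 TPM against 61.4, 49.6 and 63.1 in WT (difference −0.63, limma adjusted p = 0.00297). KCS16 BnaA03G0543500ZS was lower at 8 h, at 2.27, 3.16 and 2.39 TPM against 6.16, 6.6 and 5.49 in WT (difference −0.98, limma adjusted p = 0.00459). In the other direction the weak CER3 gene BnaC03G0126500ZS was higher in bnagrp3 by 1.46 at 4 h and 1.24 at 8 h (limma adjusted p = 0.00887 and 0.0209), with 5.61, 3.93 and 7.45 TPM against 3.11, 0.56 and 1.07 at 4 h. Its 8 h call was lost with a pseudocount of 0.1 and without any 1 of 3 libraries (down to 0.95), and its 4 h call in a fit to those 2 groups alone (limma adjusted p = 0.0787).

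The largest genotype differences were those of 1 KCS1 and 1 CER1 gene on A09, each of which has a namesake on A09 that was higher in bnagrp3. The KCS1 gene BnaA09G0693100ZS had 24.4, 21.3 and 28 TPM in WT mock, 14.3, 11.3 and 10.3 at 4 h and 10.6, 14.8 and 10.4 at 8 h, and was listed at 0 in 8 of the 9 bnagrp3 libraries and at 0.04 TPM in the other. The KCS1 gene BnaA09G0714600ZS was higher in bnagrp3 by 0.95, 0.76 and 1.06 in mock, at 4 h and at 8 h (SE 0.11, limma adjusted p = 3.1e-05, 0.000202 and 8.85e-06). CER1 showed the same arrangement, with BnaA09G0698500ZS different by −3.53, −3.7 and −3.15 (limma adjusted p = 6.01e-09, 2.55e-09 and 1.48e-08) and BnaA09G0721400ZS by 0.69, 0.7 and 0.87 (limma adjusted p = 0.000145, 0.00012 and 1.38e-05). The first CER1 copy made up 44% to 48.3% of the pair's TPM in WT mock, 46.1% to 62.9% at 4 h and 54.7% to 64.3% at 8 h, and 3.49% to 4.7%, 4.73% to 5.34% and 7.32% to 8.15% in bnagrp3. The first KCS1 copy made up 31.3% to 48.8% in the WT libraries and at most 0.112% in bnagrp3.

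The pair sums differed much less than the single copies. For CER1 they were 472 ± 72 TPM (SD, n = 3) in WT mock, 630 ± 70.5 at 4 h and 756 ± 46.9 at 8 h, against 430 ± 12, 491 ± 36 and 622 ± 47.1 TPM for bnagrp3. For KCS1 they were 64 ± 5.01, 32 ± 1.59 and 27.4 ± 2.6 TPM in WT and 77.3 ± 1.47, 34.3 ± 1.37 and 33.5 ± 4.27 in bnagrp3. Neighbouring genes showed the same division. Identifiers from the KCS1 to the CER1 copy high in WT, both copies included, covered 42 tested genes. Of these, 38, 38 and 35 were lower in bnagrp3 in mock, at 4 h and at 8 h, and none was higher. The like stretch of the copies high in bnagrp3, again with both copies included, covered 45 tested genes. Of those, 28, 29 and 31 were higher and 3, 2 and 1 lower. Over the whole of A09, 11.3% of 3648 tested genes were higher and 10.8% lower in mock. These stretches were chosen after the values of the CER1 and KCS1 copies were seen, and their counts are a description.

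**Figure D5:**
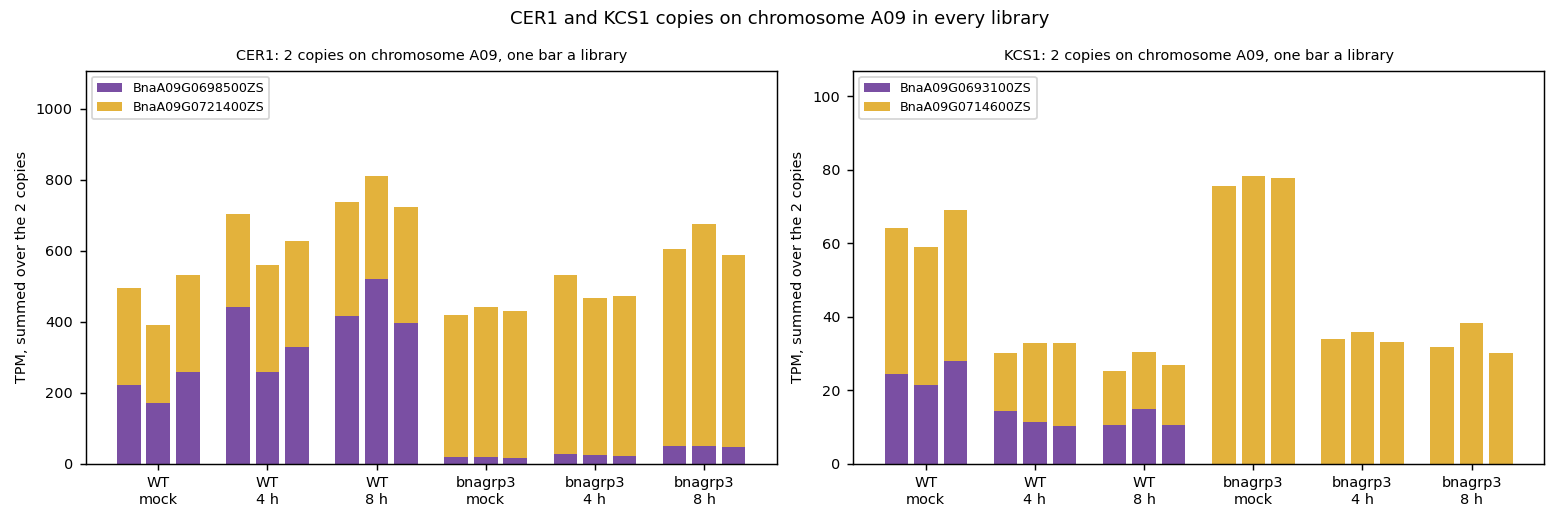
TPM of the 2 CER1 genes (left) and the 2 KCS1 genes (right) on chromosome A09, stacked in 1 bar for each library of WT and bnagrp3 in mock, NaCl 4 h and NaCl 8 h. In WT both copies contribute, whereas in bnagrp3 the copy drawn in purple is nearly missing and the copy in yellow makes up almost the whole bar, and the bars rise with salt for CER1 and fall for KCS1.

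The response to salt itself differed between the genotypes for few wax genes. The difference of responses, bnagrp3 minus WT, was called for 2 genes upward and 3 downward at 4 h, beside 2.46% of all genes, 1.14% upward and 1.32% downward, and for 3 upward and 1 downward at 8 h, beside 1.38%, 0.782% upward and 0.599% downward. With quantile normalisation the split at 8 h was 3 upward and 2 downward. The calls numbered 8 at 4 h and 5 at 8 h without the 2 WT libraries of highest ratio, 4 and 2 without the 2 at 0, and 1 at 8 h without the first WT library at 8 h.

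A MYB96 gene on C06 had the largest difference. BnaC06G0409400ZS had 0.86, 0.8 and 1.17 TPM in WT mock, 6.44, 10.5 and 8.37 at 4 h and 5.83, 6.13 and 8.45 at 8 h, but 0.6, 0.24 and 0.16, then 1.13, 0.79 and 1.15, then 1.87, 1.99 and 1.44 in bnagrp3. Its salt libraries were lower in bnagrp3 without overlap, and the rise of 2.26 in WT at 4 h stood against 0.61 in bnagrp3, a difference of −1.65 (SE 0.25, limma adjusted p = 0.00373). With a pseudocount of 0.1 it was −1.53 (SE 0.45) and not called (limma adjusted p = 0.0983). Other MYB96 genes differed the other way. BnaA07G0250700ZS had 3.07, 3.03 and 3.29 TPM in WT mock but 0.89, 1.89 and 1.35 in bnagrp3 mock, and 6.5, 6.6 and 6.37 against 7.02, 5.71 and 6.56 at 4 h. Its responses differed by 0.8 at 4 h and 0.9 at 8 h (limma adjusted p = 0.0477 and 0.0379), with mock libraries apart and salt libraries at 4 h overlapping. BnaA06G0277700ZS reached 3.56, 3.5 and 4.88 TPM at 8 h in WT and 8.76, 8.9 and 7.55 in bnagrp3 from like mock levels, a difference of 0.97 (SE 0.2, limma adjusted p = 0.0263). The calls of both these genes were lost when most single libraries were left out.

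Among the enzymes, the identical KCS6 models BnaC07G0237700ZS and Bnascaffold0749G0000100ZS rose less in bnagrp3 at 4 h by a difference of −0.73 (SE 0.16, limma adjusted p = 0.031). They started higher there, with a mock difference of 0.57. CER26 BnaC04G0357800ZS, which rose in WT alone, differed by −0.9 at 8 h (SE 0.15, limma adjusted p = 0.00998). The KCS1 gene BnaA09G0693100ZS differed by 1 at 4 h and 0.99 at 8 h (limma adjusted p = 0.015 and 0.0186). That gene fell with salt in WT and was at or near 0 in bnagrp3 in every treatment.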

How the data were processed

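Polyadenylated RNA of 18 libraries was sequenced. Per the submitters' processing notes, fastp, HISAT2 and featureCounts were used, without versions. Not given in the sources used here are the genome build, annotation, strand and handling of shared reads. The authors deposited TPM per gene and library, with Swiss-Prot and further descriptions per gene. TPM keeps no read depth, so no count test was possible. Every library column was matched to its label by name.

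Values were transformed to log2(TPM + 1) with a pseudocount of 1, and genes at 1 TPM or more in at least 3 of 18 libraries were kept (57923 of 108207). With limma 3.58.1 in R 4.3.3, 1 mean per group was fitted to all 18 libraries, with an intensity trend, and 11 comparisons were tested two-sided with Benjamini-Hochberg adjustment over all genes kept. For 57923 genes, all 18 libraries were simulated from each gene's mean over all libraries and its spread within groups. Changes were added in the WT 4 h group to genes with a mean log2(TPM + 1) above 3. In the comparison with WT mock, 81 of 100 genes changed by 1 on the log2 scale and 98 of 100 changed by 2 were called. There were 9 false calls, and recovery of genes at lower levels was not simulated. Few genes were changed in the simulation, whereas 46.6% of genes were called in this comparison of the data. The unadjusted p needed for a call differs with that share, so these rates need not hold for the reported tests.

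The rule for named genes worked by family: each KCS number, CER1 with CER3, CER2 with the CER26 types, CER16, WSD1 and MYB96. In each family it took the gene of highest mean. In each comparison with mock it added up to 3 called rises and up to 3 falls per family. Those had no overlap of libraries and a group mean of at least 5 TPM. It took up to 5 calls in each direction in the other comparisons, and up to 2 in each direction of each other pathway list. It would also have taken genes called against mock in opposite directions between genotypes or between times, but there were none. Further genes of these names, and the A09 neighbours, were named after their values were seen. Genes and lists were chosen with earlier results of these data known. Alternatives tried were quantile and median-of-ratios scaling, a filter of 5 TPM or none, a pseudocount of 0.1, a replicate block, fits to the groups compared alone, leaving out each library, and, added after seeing the data, leaving out the second WT 4 h with the third WT 8 h library, or the first WT 4 h with the second WT 8 h library.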

Additional observations from a re-analysis of the deposited data

Results flagged for a closer look

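The response to salt, bnagrp3 minus WT on the log2(TPM + 1) scale, passed the limma test of the difference between genotypes in 9 results on 7 gene models. At 4 h it was −1.65 for the MYB96 gene BnaC06G0409400ZS, which kept its call when any library was left out but lost it with a pseudocount of 0.1 (−1.53, adjusted p = 0.0983). For the MYB96 gene BnaA07G0250700ZS it was 0.8 at 4 h and 0.9 at 8 h, and these calls were lost without any 1 of 10 and of 9 of the 12 libraries involved. For the MYB96 gene BnaA06G0277700ZS it was 0.97 at 8 h, lost without any 1 of 8 libraries and with a pseudocount of 0.1. For the KCS6 models BnaC07G0237700ZS and Bnascaffold0749G0000100ZS, which hold identical values, it was −0.73 at 4 h, lost without any 1 of 7 libraries. For the CER26 gene BnaC04G0357800ZS it was −0.9 at 8 h, kept when any library was left out. For the KCS1 gene BnaA09G0693100ZS it was 1.0 at 4 h and 0.99 at 8 h, the latter lost without either of 2 libraries and with a pseudocount of 0.1, and all bnagrp3 libraries were at or near 0.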

How the results depend on the processing

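Of the 91 counts of called genes under alternatives other than leaving out 1 library, 11 lay more than 1.5 times from the value reported. Fitting only the groups compared gave 0 calls between WT 8 h and 4 h (21 genes at an unadjusted p under 0.05 in limma), 15 between genotypes at 4 h, and 2 differences of response at 4 h and 2 at 8 h. Both the pseudocount of 0.1 and the replicate block gave 2 differences of response at 8 h, against 4. Without the second WT 4 h and the third WT 8 h library, 6 genes were called between WT 8 h and 4 h and 8 differences of response at 4 h. Without the first WT 4 h and the second WT 8 h library these were 6 between WT 8 h and 4 h, 19 between genotypes at 4 h and 2 differences of response at 8 h. Libraries with the same number did not deviate together (correlations −0.431 to 0.0656), so the replicate block, 63, 64, 52, 61, 11, 21, 15, 30, 31, 4 and 2 calls in the 11 comparisons, rests on numbers alone.

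Leaving out each library in turn gave 52 to 65 calls in WT at 4 h, 58 to 64 at 8 h, 44 to 51 and 55 to 59 in bnagrp3, 6 to 13 between WT 8 h and 4 h (6 without WT 4 h library 2 or WT 8 h library 1, 7 without WT 8 h library 2), 12 to 24 between bnagrp3 8 h and 4 h, 14 to 18, 18 to 30 and 23 to 28 between genotypes, and 2 to 7 and 1 to 4 differences of response. Of 2886 alternative values of the 200 results on single named genes none reversed and 218 lost their call, 130 of them when 1 library was left out, which ended the call of 35 of the 200. Depth is unknown, so the limit it sets on genes near 0 cannot be given.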
